A study of Mus musculus with 1 sample.

Results

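Runx1, Runx2, Runx3 and Cbfb are the genes of core binding factor, and they were followed here through the blood progenitor types of mouse bone marrow. They were taken as the rows of a single-cell count matrix whose gene symbol is one of these 4, which gave 4 of 32285 genes, with 1 row each. Single-cell RNA-seq had been run on 1 library of lineage-negative, Kit-positive marrow cells from the femora and tibiae of C57BL/6 mice. The mice carried Brd9 flanked by loxP sites (Brd9 fl/fl) and no Cre, so Brd9 was left intact, and they had been given 3 doses of 20 mg/kg polyinosinic-polycytidylic acid (pIpC), which induces interferon, 8 weeks before the cells were taken. The sample's labels name a CD45.2(+) donor and a CD45.1(+) CD45.2(-) recipient, as for a transplant, and place the first dose 4 weeks after it, while the series' design text and the study's methods name primary mice, and which applies was not settled. Because there was 1 library, there were no replicates: intervals below are 95% intervals for counting error only, cells are not replicates, and no difference was tested across mice.

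Core binding factor is a heterodimer. Each Runx protein binds DNA through its Runt domain, and Cbfb, which does not bind DNA itself, holds that domain in the form that binds tightly. Runx1 is required for the first blood stem cells of the embryo and, in the adult, for platelet and lymphocyte formation. Runx2 is best known as the factor that specifies osteoblasts, and Runx3 for its roles in cytotoxic T cells and innate lymphocytes. Since all 3 bind the same short DNA motif and share 1 partner, which paralogue a progenitor contains, and how much of it beside Cbfb, is the question asked here of each cell type.

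In the mm10 build (GRCm38) with the GENCODE M21 gene models, Runx1 (ENSMUSG00000022952) lies on the minus strand at chr16:92601466-92826149, Runx2 (ENSMUSG00000039153) on the minus strand at chr17:44495987-44814797, Runx3 (ENSMUSG00000070691) on the plus strand at chr4:135120652-135177990 and Cbfb (ENSMUSG00000031885) on the plus strand at chr8:105170674-105217989. All 4 are protein-coding. Each overlaps other annotated genes, among them 3 antisense RNAs of Runx2 and the oppositely transcribed Supt3, but none of these lies within 1 kb of the 3′ end that a 3′ counting kit reads.

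Runx1 and Runx3 each have a distal and a proximal promoter window in RefSeq (GRCm38.p6, 250 bases before to 50 bases after the annotated start), Runx2 has 1 window and Cbfb 1, so all 4 members matched. The longest run of bases common to the distal windows of Runx1 and Runx3 and the Runx2 window was 18 bases long and holds the Runx motif ACCACA in tandem. It was noticed on reading the windows and is shown because the 3 paralogues share it and it carries the motif that Runx proteins bind. In the lines below, written 5′ to 3′ on the strand of the gene, capitals mark ACCACA and the shared run stands with 6 bases on each side.
Runx1: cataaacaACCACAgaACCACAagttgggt
Runx2: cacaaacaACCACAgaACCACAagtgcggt
Runx3: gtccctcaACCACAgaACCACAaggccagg
The Runx1 stretch is at chr16:92826025-92826054 and the Runx2 stretch at chr17:44814583-44814612, both on the minus strand and in exons of 2 and 4 annotated transcripts, and the shared run starts at base 27 and base 22 counted from the RefSeq start. The Runx3 stretch is at chr4:135120503-135120532 on the plus strand, outside the exons of the gene, and the run starts 136 bases before the RefSeq start. Of 32851 promoter windows of 300 bases, 4 held the 18-base run on either strand, which were these 3 and the window of Gm16225, a gene on the other strand whose window overlaps that of Runx3. ACCACA alone, counted on both strands as ACCACA or TGTGGT, was in 16.8% of windows at least 1 time and in 1.81% at least 2 times. The Runx1 and Runx3 distal windows held it 2 times and the Runx2 window 3 times, while the proximal windows of Runx1 and Runx3 and the window of Cbfb held it 0 times. The match is a description of sequence: 3′ counts do not tell transcripts of the distal and proximal promoters apart, and binding was not measured.

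The study's filter kept 7645 of 8817 barcodes, with 1592 to 49991 UMIs each. Kit had a UMI in 65.8% of cells and Brd9 in 41.8%, and of the genes that mark mature lineages, Cd3e was seen with 5 UMIs in all and Ly6g with 7, while Itgam, a myeloid integrin gene, had 966 UMIs and was seen in 10.6% of cells. Cells were placed in 20 classes by UMIs of 109 marker genes, none of them a member, after each cell had been thinned to 5000 UMIs. These classes hold 6019 cells (78.7%), and 17 of them have at least 50 cells. They are called "like" a cell type because they rest on RNA markers alone. Markers that no gate had used were higher in the class than in the other cells for 34 of 46 pairs of marker and class and at least 2-fold higher for 29. Of the 12 others, 8 were haemoglobin genes or Alas2 in the early and intermediate erythroid-like classes. Ighm was lower in the Flt3 multipotent progenitor-like class (121 against 291 CPM), in which Ptprcap was 2.31-fold higher. The neutrophil marker Ly6g had 0 UMIs in early and 1 in later neutrophil-like cells, while Lcn2 was 2.86-fold and 3.59-fold higher in them. Median depth ran from 8448 UMIs per cell in the HSC-like class to 33833 in the later erythroid-like class, and so each level is the number of UMIs of a gene in 1e+06 UMIs of its class (CPM).

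Over all cells kept, Runx1 was the most abundant of the paralogues, with 17778 UMIs (117 CPM). Runx3 followed with 9760 UMIs (64.3 CPM) and Runx2 with 5462 (36.0 CPM), and Cbfb had 7291 (48.0 CPM). Of the summed Runx UMIs, 53.9% (53.3 to 54.4) were from Runx1, 29.6% (29.1 to 30.1) from Runx3 and 16.6% (16.2 to 17.0) from Runx2. A UMI stands for 1 captured 3′ end and is not scaled by transcript length. Capture can still differ between genes, so the shares are read below for how they differ between classes rather than as a count of proteins.

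The 4 genes differed widely in how far their levels spread over the 17 classes. The highest level was 358 times the lowest for Runx2, whose lowest level is not told apart from free RNA in the droplets, 13.8 times for Cbfb, 10.8 times for Runx1 and 4.44 times for Runx3. Against the HSC-like class, which all 16 comparisons share as their reference, Runx2 was at least 2-fold higher in 3 classes and at least 2-fold lower in 7. Runx1 was higher in 1 and lower in 4, Runx3 higher in 2 and lower in 0, and Cbfb higher in 0 and lower in 2. Higher or lower by 2-fold here means a ratio of at least 2 in that direction whose interval lies wholly on 1 side of 1. Over the 16 comparisons, 3.34% to 13.2% of all genes were at least 2-fold higher and 8.1% to 41.8% at least 2-fold lower, and each comparison's own share is given below where its members are described.

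**Figure D1:**
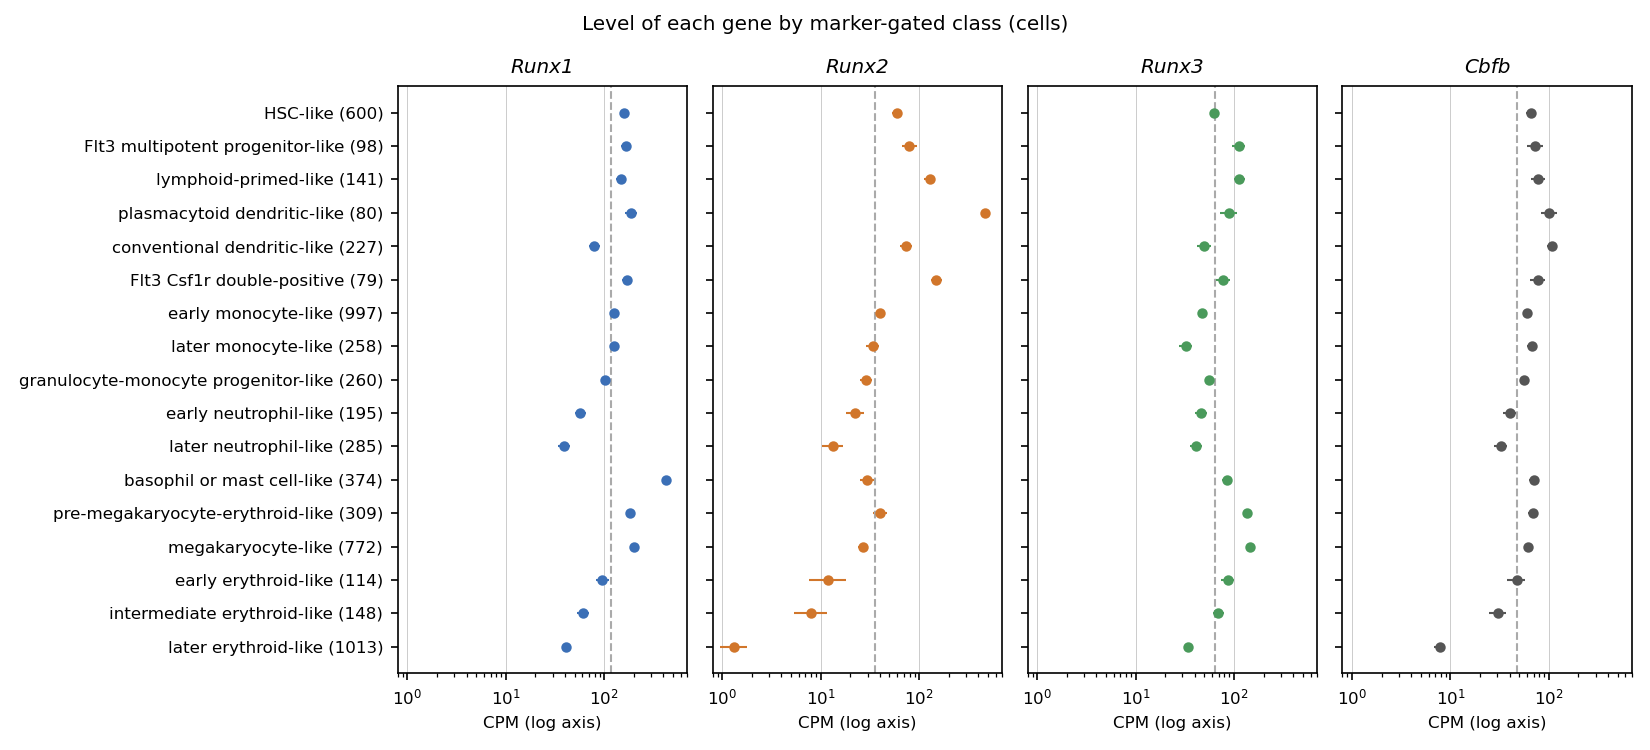
Level of Runx1, Runx2, Runx3 and Cbfb in CPM (log axis) in each marker-gated class of at least 50 cells, with cell numbers in parentheses. Points are summed UMIs over all UMIs of the class, bars are exact 95% Poisson intervals, often narrower than the point, and the dashed line is the level over all cells kept. Runx2 runs from 471 CPM in plasmacytoid dendritic-like cells to 1.32 in later erythroid-like cells, while Runx1 peaks in basophil or mast cell-like cells at 424.

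Runx1 stood highest in basophil or mast cell-like cells, gated on at least 3 of 8 genes such as Prss34, Mcpt8 and Fcer1a. In these 374 cells it was at 424 CPM (406 to 442), and 98.1% of these cells had at least 1 Runx1 UMI before thinning. The quartiles of single cells were 267, 393 and 589 CPM, and the 5 cells with most UMIs held 4.49% of them, so the level did not come from a few cells. The next class, megakaryocyte-like cells, was at 200 CPM (193 to 209), and the ratio of basophil or mast cell-like over megakaryocyte-like was 2.11 (1.99 to 2.24). Against HSC-like cells, at 157 CPM (147 to 168), Runx1 was 2.69-fold higher (2.49 to 2.91). Of all genes tested in that comparison, 7.58% were at least 2-fold higher, and 94.98% had a smaller ratio than Runx1.

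Below that peak the levels fell off in small steps. Megakaryocyte-like, plasmacytoid dendritic-like (187 CPM), pre-megakaryocyte-erythroid-like (182), Flt3 Csf1r double-positive (172), Flt3 multipotent progenitor-like (166), HSC-like (157) and lymphoid-primed-like cells (148) followed each other, and no neighbouring pair among these 7 differed beyond counting error. Classes further apart did differ, with megakaryocyte-like over HSC-like at 1.27 (1.18 to 1.38). Early and later monocyte-like cells were both at 125 CPM, with a later over early ratio of 0.9996 (0.918 to 1.09). Granulocyte-monocyte progenitor-like cells, gated on at least 30 UMIs of the granule genes Mpo, Elane, Ctsg, Prtn3 and Ms4a3, were at 103 CPM and conventional dendritic-like cells at 79.6. Runx1 was lowest in later erythroid-like cells (40.9 CPM, 38.7 to 43.1) and later neutrophil-like cells (39.2, 34.1 to 44.8), whose difference was within counting error. These levels are 3.85-fold (3.54 to 4.19) and 4.02-fold (3.46 to 4.69) below the HSC-like class. In those comparisons 34.1% and 41.8% of all genes were at least 2-fold lower, so this direction was common among genes. Unthinned, 68.5% of later erythroid-like and 73% of HSC-like cells had a Runx1 UMI, at median depths of 33833 and 8448 UMIs. Runx1 was also 2.75-fold (2.39 to 3.18) lower in early neutrophil-like and 2.58-fold (2.22 to 3.01) lower in intermediate erythroid-like cells, where 33.7% and 26.9% of all genes were at least 2-fold lower. With gates on unthinned counts the Runx1 ratio of intermediate erythroid-like to HSC-like cells was 1.07 (0.893 to 1.27), so that difference rests on how the class is drawn.

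Runx2 stood highest in plasmacytoid dendritic-like cells, followed by classes gated on Flt3 or lymphoid genes. The 80 plasmacytoid dendritic-like cells had at least 2 UMIs of genes such as Siglech, Spib, Klk1 and Cd300c, and genes no gate used, Tcf4 and Bst2, were 6.40-fold and 7.74-fold higher in them than in other cells. They also had genes of the monocyte gate, with a median of 9 thinned UMIs per cell beside 4 of their own gate, where early monocyte-like cells had 10 and 0, and the part of this in the Runx2 level was not tested. Runx2 was at 471 CPM (433 to 511) there, with a UMI in 96.2% of cells and a median cell at 417 CPM. The Flt3 Csf1r double-positive class came next at 150 CPM (132 to 170), then lymphoid-primed-like cells at 128 (113 to 144), Flt3 multipotent progenitor-like cells at 79.9 (66.6 to 95.02) and conventional dendritic-like cells at 73.0 (63.3 to 83.9). Plasmacytoid dendritic-like cells were 3.14-fold (2.69 to 3.66) above the double-positive class and 6.45-fold (5.48 to 7.61) above conventional dendritic-like cells, where 4.61% of all genes were at least 2-fold higher. Against HSC-like cells, at 59.3 CPM (53.2 to 65.9), the difference was 7.94-fold (6.93 to 9.11), where 9.49% of all genes were at least 2-fold higher and 98.6% had a smaller ratio. When 206 cells were taken by graph clusters in place of the gate, the level was 244 CPM and the difference from HSC-like cells 4.14-fold.

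The other Flt3 classes spread less evenly. In the double-positive class, defined by a UMI of Flt3 and of Csf1r, 68.4% of cells had a Runx2 UMI, the lower quartile of cells was at 0, and the 5 cells with most held 35.7% of the UMIs, 25 of them in 1 cell. Runx2 was 2.53-fold (2.14 to 2.99) above HSC-like cells there, and 2.16-fold (1.84 to 2.54) in lymphoid-primed-like cells, gated on Dntt, Il7r, Rag1, Rag2 and Arpp21. Among all genes, 7.32% and 4.98% were at least 2-fold higher in those comparisons. Plasma cell genes summed to 480 CPM in lymphoid-primed-like cells against 55.6 in HSC-like cells, and their part in the Runx2 level was not tested. Early monocyte-like (40.1 CPM), pre-megakaryocyte-erythroid-like (40.05), later monocyte-like (33.7), basophil or mast cell-like (29.9), granulocyte-monocyte progenitor-like (28.9), megakaryocyte-like (26.8) and early neutrophil-like cells (22.4) followed, with no neighbours that differed beyond counting error. Megakaryocyte-like cells were 2.21-fold (1.90 to 2.59) below HSC-like cells, where 9.23% of all genes were at least 2-fold lower and 7.50% had a smaller ratio. Granulocyte-monocyte progenitor-like cells were 2.05-fold (1.71 to 2.47) lower, where 26.3% of genes were at least 2-fold lower. Early and later neutrophil-like cells were 2.64-fold (2.10 to 3.35) and 4.46-fold (3.45 to 5.83) lower, where 33.7% and 41.8% of genes were. With gates on unthinned counts the Runx2 ratios to HSC-like cells were 0.586 in megakaryocyte-like and 1.001 in granulocyte-monocyte progenitor-like cells, both within 2-fold. In early monocyte-like cells 37.1% had a Runx2 UMI, and a single cell held up to 21.

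Runx2 was lowest along the erythroid classes. It was 4.97-fold (3.26 to 7.95) below HSC-like cells in early and 7.36-fold (5.004 to 11.2) in intermediate erythroid-like cells. In these comparisons 20.2% and 26.9% of all genes were at least 2-fold lower. Plasma cell genes summed to 290 CPM in intermediate erythroid-like cells against 55.6 in HSC-like cells, and their part in the member levels was not tested. Later erythroid-like cells, which had at least 2 UMIs of late erythroid genes such as Rhd and Ermap, had 44 Runx2 UMIs in 1013 cells, or 1.32 CPM (0.956 to 1.77), which is 45.1-fold (32.8 to 63.2) below HSC-like cells. In that comparison 34.1% of all genes were at least 2-fold lower, and 4.26% of the genes tested had a smaller ratio. After thinning to 5000 UMIs, 0.888% of these cells had a Runx2 UMI against 83.8% of plasmacytoid dendritic-like cells, and unthinned the shares were 3.95% and 96.2%, at median depths of 33833 and 14564.5 UMIs. Free RNA in droplets reaches every cell, so shares at or below that of the later erythroid-like cells are read as background. The Runx2 level of the later erythroid-like class is not told apart from such RNA, so ratios to it are ratios of captured UMIs and not of expression. Osteoblast genes were looked at because osteoblasts also express Runx2: none of 9 osteoblast and stroma genes, among them Bglap, Ibsp, Sp7 and Col1a1, had a UMI in the plasmacytoid dendritic-like class, and over all cells kept they had 356, of which 326 were from Col1a2.

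Among the classes of at least 50 cells, Runx3 varied least and was highest on the megakaryocyte side. Megakaryocyte-like cells, gated on at least 3 of 9 genes such as Pf4, Gp9 and Treml1, were at 145 CPM (138 to 152), and pre-megakaryocyte-erythroid-like cells, gated on genes such as Gata2, Zfpm1, Slc14a1 and Apoe, at 137 (126 to 150). The pair differed by less than counting error, with a ratio of 1.05 (0.955 to 1.17). Against HSC-like cells, at 62.9 CPM (56.6 to 69.7), the differences were 2.30-fold (2.05 to 2.58) and 2.18-fold (1.90 to 2.50). At least 2-fold higher in these comparisons were 4% and 3.34% of all genes, and 97.3% of genes had a smaller ratio than Runx3 in each. Summed UMIs of its own gate genes did not set the pre-megakaryocyte-erythroid-like class apart. Their median per thinned cell was 10 there, 9 in HSC-like and 10 in megakaryocyte-like and early erythroid-like cells. Cd9, which no gate used, was 1.55-fold higher in that class than in other cells. The HSC-like reference for Runx3 moved with the cells that were taken: megakaryocyte-like over HSC-like was 1.94-fold when cells under 5000 UMIs or with a mitochondrial share of 5% or more were left out, and 3.51-fold with graph clusters. Gated cells already held at least 5000 UMIs, so for them that filter acted on mitochondrial share. It left 337 of 600 HSC-like cells and 707 of 772 megakaryocyte-like cells.

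Lymphoid-primed-like cells (114 CPM, 99.7 to 129) and Flt3 multipotent progenitor-like cells (112, 96.1 to 130) came next, with a ratio of 1.01 (0.832 to 1.24). From there the order of Runx3 was nearly continuous, through plasmacytoid dendritic-like (88.7 CPM), early erythroid-like (86.1), basophil or mast cell-like (84.1), intermediate erythroid-like (69.3) and HSC-like cells down to later erythroid-like (34.3) and later monocyte-like cells (32.6). Only 2 of its 16 neighbouring pairs differed beyond counting error. The 13 T or innate lymphoid-like cells, gated on genes such as Il2rb, Tcf7 and Gata3, were at 391 CPM (291 to 516) from 50 UMIs, of which 23 were in 1 cell. The level was 6.22-fold (4.53 to 8.38) above HSC-like cells, where 5.21% of all genes were at least 2-fold higher. Without that cell the level was 254 CPM (168 to 370) and the Runx3 share given next 65.9%. Runx1 was 2.51-fold (1.27 to 5.84) lower than in HSC-like cells from 8 UMIs, where 3.92% of genes were at least 2-fold lower. In these cells Runx3 made up 78.1% (66.0 to 87.5) of the Runx UMIs and Cbfb had 3 UMIs.

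Cbfb varied little outside the erythroid and neutrophil classes. It was at 108 CPM (95.7 to 121) in conventional dendritic-like cells, gated on at least 4 of 8 genes such as H2-Aa, Cd74 and Xcr1, and at 100 (83.2 to 120) in plasmacytoid dendritic-like cells. From lymphoid-primed-like cells (77.9 CPM) down to intermediate erythroid-like cells (30.2), none of 13 neighbouring pairs differed beyond counting error. Intermediate erythroid-like cells were 2.16-fold (1.74 to 2.71) below HSC-like cells, where 26.9% of all genes were at least 2-fold lower, and with gates on unthinned counts the Cbfb ratio was 1.11 (0.848 to 1.45), on the other side of 1. HSC-like cells stood at 65.3 CPM (58.9 to 72.3), basophil or mast cell-like cells at 70.3 (63.2 to 77.9) and megakaryocyte-like cells at 61.2 (56.8 to 65.8). The level then dropped to 7.81 CPM (6.89 to 8.81) in later erythroid-like cells, 3.87-fold (3.05 to 4.87) below the intermediate erythroid-like class and 8.37-fold (7.13 to 9.84) below HSC-like cells. Of all genes, 34.1% were at least 2-fold lower in later erythroid-like than in HSC-like cells.

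Paralogue use, the share of Runx UMIs from each gene, differed between the classes beyond counting error in several ways. In HSC-like cells 56.3% (53.8 to 58.7) of 1613 Runx UMIs were from Runx1, 21.2% (19.2 to 23.3) from Runx2 and 22.5% (20.5 to 24.6) from Runx3. Basophil or mast cell-like cells had the largest Runx1 share, 78.8% (77.2 to 80.3) of 2770 UMIs, with 15.6% from Runx3 and 5.56% from Runx2. Plasmacytoid dendritic-like cells were the 1 class of at least 50 cells in which Runx2 made up most of the Runx UMIs, 63.0% (59.8 to 66.2) of 901, with 25.1% (22.3 to 28.1) from Runx1 and 11.9% (9.84 to 14.2) from Runx3. When the class was taken by graph clusters, the Runx2 share was 48.9% (46.8 to 51.1), no longer clearly most of them. Lymphoid-primed-like and conventional dendritic-like cells were mixed: the shares of Runx1, Runx2 and Runx3 were 38.0%, 32.9% and 29.1% in the former and 39.3%, 36.1% and 24.6% in the latter.

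On the megakaryocyte and erythroid side Runx2 took a smaller share than in HSC-like cells and Runx3 a larger one. Pre-megakaryocyte-erythroid-like cells had 38.2% (35.6 to 40.9) Runx3 and 11.2% (9.53 to 12.97) Runx2, and megakaryocyte-like cells 38.9% (37.5 to 40.3) and 7.20% (6.46 to 7.996). In early, intermediate and later erythroid-like cells the Runx3 share was 44.4% (39.3 to 49.6), 50.1% (45.5 to 54.7) and 44.8% (42.9 to 46.8), and the Runx2 share 6.15%, 5.82% and 1.72%. The Runx1 share stayed between 44.1% and 53.9% in these 5 classes. Later monocyte-like cells had 65.4% (62.5 to 68.3) Runx1 and 17.0% (14.8 to 19.4) Runx3, whereas later neutrophil-like cells had 41.8% (37.5 to 46.2) and 44.0% (39.6 to 48.4), so Runx1 outnumbered Runx3 in the former and not in the latter.

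**Figure D2:**
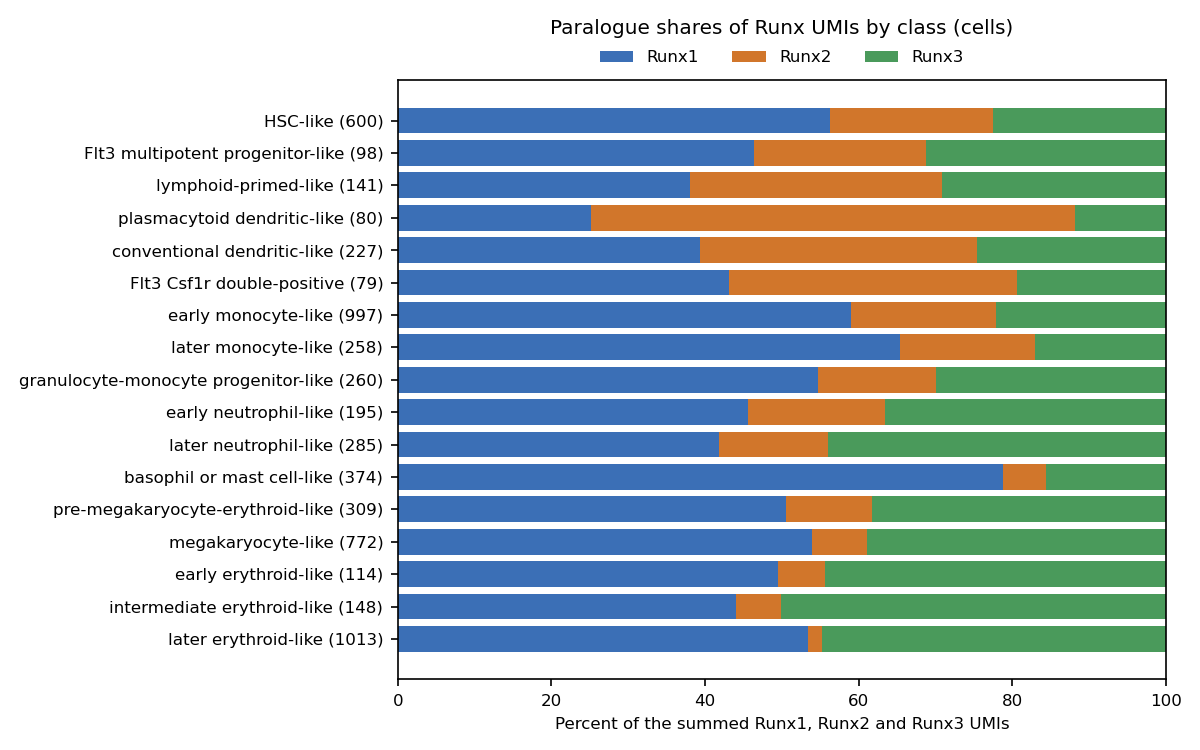
Share of the summed Runx1, Runx2 and Runx3 UMIs that each gene took, in percent, in each marker-gated class of at least 50 cells (cell numbers in parentheses). Runx2 takes 63.0% in plasmacytoid dendritic-like cells and 1.72% in later erythroid-like cells, and Runx1 takes 78.8% in basophil or mast cell-like cells.

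Set beside Cbfb, the shared partner, Runx UMIs outnumbered Cbfb UMIs in every class. HSC-like cells had 4.28 (3.82 to 4.799) Runx UMIs per Cbfb UMI and all cells kept 4.53 (4.41 to 4.64). Conventional dendritic-like cells had the lowest ratio, 1.88 (1.63 to 2.17), with the highest Cbfb level and 202 CPM of Runx in sum. Basophil or mast cell-like cells were at 7.65 (6.86 to 8.56) and plasmacytoid dendritic-like cells at 7.45 (6.15 to 9.08), with high Runx1 in the former and high Runx2 in the latter. Megakaryocyte-like cells were at 6.08 (5.62 to 6.58). Among classes of at least 50 cells the highest ratio, 9.79 (8.62 to 11.2), was in later erythroid-like cells, in which the summed Runx level was the lowest of all, 76.4 CPM (73.5 to 79.5), and Cbfb was lower still. The 13 T or innate lymphoid-like cells were at 21.3 (6.98 to 106), from 3 Cbfb UMIs. This is a ratio of captured messages and says nothing of the proteins.

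**Figure D3:**
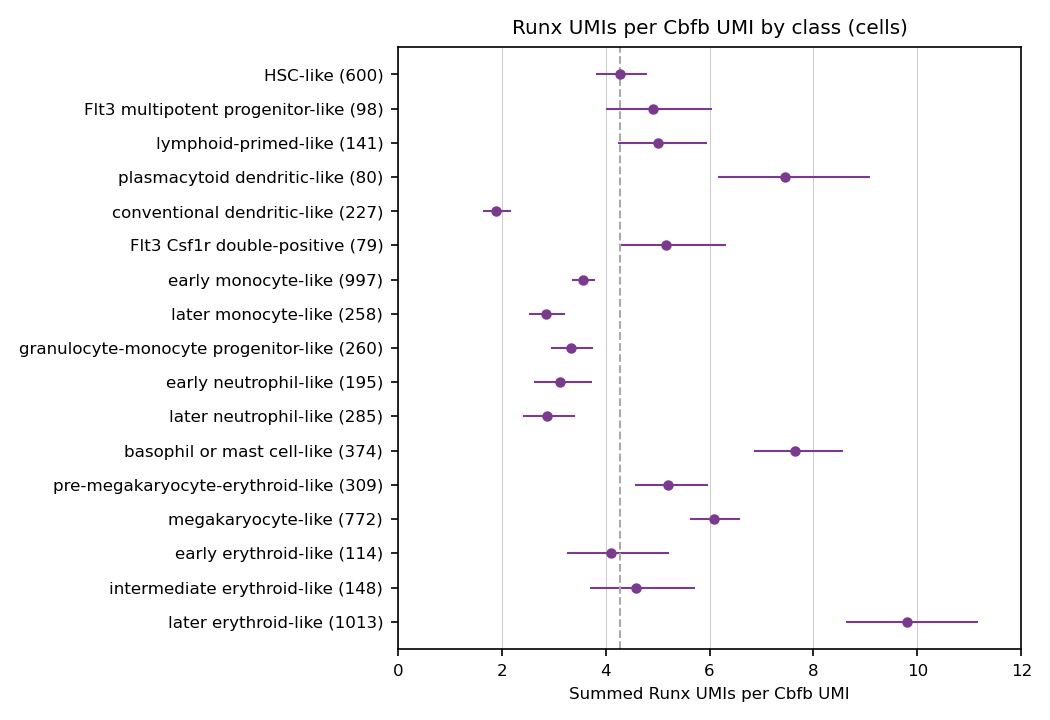
Summed Runx1, Runx2 and Runx3 UMIs per Cbfb UMI in each marker-gated class of at least 50 cells (cell numbers in parentheses), with exact 95% intervals for counting error as bars. The dashed line marks the HSC-like class at 4.28. Conventional dendritic-like cells lie lowest at 1.88 and later erythroid-like cells highest at 9.79.

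The erythroid classes allowed each gene to be followed through 3 gates, from cells without a UMI of late erythroid genes such as Rhd and Ermap, through those with 1, to those with at least 2. Runx1 was at 96.0, 61.0 and 40.9 CPM in the early, intermediate and later class. Runx3 was at 86.1, 69.3 and 34.3 CPM, Cbfb at 47.2, 30.2 and 7.81, and Runx2 at 11.9, 8.05 and 1.32. Later over early erythroid-like ratios were 0.426 (0.365 to 0.499) for Runx1, 0.398 (0.338 to 0.471) for Runx3, 0.165 (0.130 to 0.212) for Cbfb and 0.110 (0.0652 to 0.191) for Runx2. The step from early to intermediate was within counting error for Runx2, with an early over intermediate ratio of 1.48 (0.815 to 2.67). So 4 of 4 members were at least 2-fold lower, where 15.3% of all genes were, and for Cbfb 2.33% and for Runx2 0.987% of genes had a smaller ratio. These levels are shares of a class's UMIs, and median depth was 12724.5, 20901 and 33833 UMIs in the 3 classes. Unthinned, 70.2%, 70.3% and 68.5% of their cells had a Runx1 UMI, and 71.9%, 71.6% and 57.7% a Runx3 UMI. The share with a Cbfb UMI was 47.4%, 48.0% and 19.5%. Whether Runx1 or Runx3 messages per cell fell was not tested. Early erythroid-like cells are a small group of 114 cells, 71.9% of which had just the 3 markers the gate asks for. With gates on unthinned counts, which draw the early class differently, Runx1 and Cbfb in it were 1.12-fold and 1.16-fold of HSC-like cells instead of 0.61-fold and 0.72-fold.

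The members were followed in the neutrophil direction in the same way. From granulocyte-monocyte progenitor-like through early to later neutrophil-like cells, which had at least 3 UMIs of S100a8, Runx1 was at 103, 57.2 and 39.2 CPM and Runx2 at 28.9, 22.4 and 13.3. Runx3 was at 56.2, 46.0 and 41.2 CPM, with a later over early ratio of 0.895 (0.736 to 1.09), and Cbfb at 56.6, 40.2 and 32.7. None of the 4 members was 2-fold lower in later than in early neutrophil-like cells, where 2.39% of all genes were. With gates on unthinned counts the granulocyte-monocyte progenitor-like class held 46 cells in place of 260. Its Runx1 and Runx2 ratios to HSC-like cells then changed side of 1, so the start of this series rests on how that class is drawn. Between early and later monocyte-like cells, split by a UMI of Fn1 or Tgfbi, Runx3 was the member that differed most, 47.1 against 32.6 CPM (0.692-fold, 0.587 to 0.812), and 4.85% of genes had a smaller ratio.

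Within the HSC-like class, gated on at least 3 of 9 genes such as Procr, Mecom and Fgd5, the 192 cells with a UMI of Vwf, which marks platelet-biased stem cells, were compared with the 408 without. The class leaves out cells that passed gates such as the megakaryocyte gate and cells with a Flt3 UMI. Vwf cells with at least 3 megakaryocyte markers were thus outside this comparison. Runx1 was 1.19-fold (1.03 to 1.36) higher with Vwf, at 176 against 148 CPM. The other members were lower, with ratios of 0.768 (0.598 to 0.978) for Runx2, 0.782 (0.615 to 0.988) for Runx3 and 0.773 (0.610 to 0.973) for Cbfb. These intervals come close to 1, none of the 4 passed 2-fold, and 0.302% and 0.539% of all genes were at least 2-fold higher and lower. The Runx1 share was 63.2% (59.0 to 67.4) with Vwf and 52.9% (49.9 to 55.9) without.

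Single cells often held more than 1 paralogue. With each cell thinned to 5000 UMIs, 25.3% (21.9 to 29.0) of HSC-like cells had UMIs of at least 2 Runx genes, and 4.83% had all 3. The share was 66.2% (54.8 to 76.4) in plasmacytoid dendritic-like cells, 47.5% (39.1 to 56.1) in lymphoid-primed-like cells, 41.2% (36.1 to 46.4) among basophil or mast cell-like cells and 35.5% (32.1 to 39.0) in megakaryocyte-like cells. The pairs differed: Runx1 with Runx2 was seen in 46.2% of plasmacytoid dendritic-like cells, whereas Runx1 with Runx3 was seen in 33.2% of basophil or mast cell-like, 29.3% of megakaryocyte-like and 26.3% of early erythroid-like cells. Taken singly, Runx1 and Runx2 were seen in 55% and 83.8% of plasmacytoid dendritic-like cells. Runx1 and Runx3 were seen in 85.8% and 37.2% of basophil or mast cell-like cells. Pairing beyond what such single-gene shares give was not tested. In later erythroid-like cells 66.3% had no Runx UMI at this depth and 3.95% (2.84 to 5.34) had at least 2 genes. These shares count detection and rise with depth: unthinned, 47.2% of HSC-like and 93.8% of plasmacytoid dendritic-like cells had at least 2 Runx genes, and thinned to 3000 UMIs 14.8% and 46.2%.

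**Figure D4:**
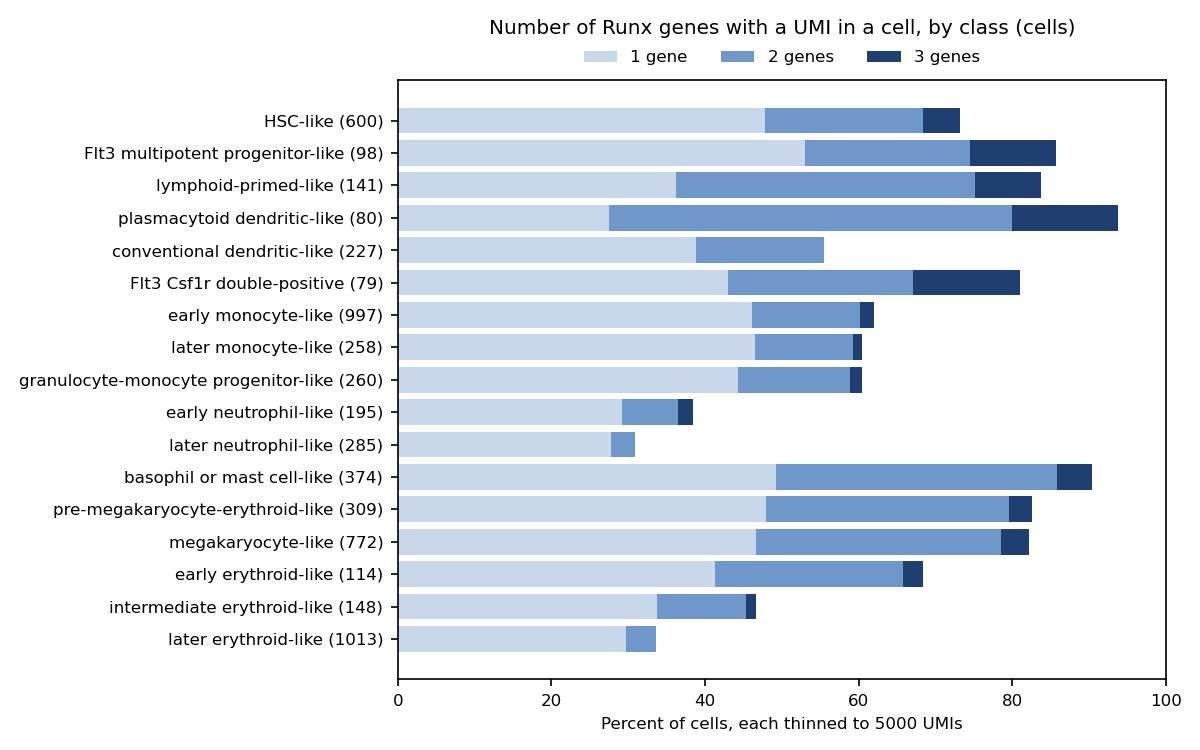
Percent of cells with UMIs of 1, 2 or 3 of the genes Runx1, Runx2 and Runx3 after each cell was thinned to 5000 UMIs, by marker-gated class of at least 50 cells (cell numbers in parentheses). The empty part of each bar is cells with none. At least 2 genes were seen in 66.2% of plasmacytoid dendritic-like and 3.95% of later erythroid-like cells.

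Proteins that work with Runx factors were followed from lists chosen with earlier results of these data known. Of 22 cofactors, which include the Groucho-family corepressors Tle1 to Tle5, the Eto family, and histone acetyltransferases and deacetylases, 22 had enough UMIs to compare in each class below. In basophil or mast cell-like over HSC-like cells 1 was at least 2-fold higher and 4 lower, with a median ratio of 0.88 beside 0.84 over all genes. Tle1 was at 21.2 against 8.15 CPM (2.60-fold, 1.83 to 3.74). Among the lower ones were Runx1t1, with 1 UMI, Tle2 and the histone methyltransferase gene Kmt2a (109 against 267 CPM). At least 2-fold lower were 19.9% of all genes here and 22.3% in the next comparison. In plasmacytoid dendritic-like cells the count was again 1 higher, Tle1 at 17.4 CPM (2.14-fold, 1.21 to 3.65), and 4 lower, Cbfa2t2, Runx1t1, Tle2 and Kmt2a. Runx1t1 had 0 UMIs there, where 3 UMIs would be 2.49 CPM, against 13.9 CPM in HSC-like cells.

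In megakaryocyte-like cells 0 cofactors were at least 2-fold higher and 2 were lower, Runx1t1 (3.98 against 13.9 CPM) and Tle2 (5.88 against 13.9), and in later erythroid-like cells 0 were higher and 5 lower. Among the latter were Cbfa2t3, an Eto-family corepressor of erythroid genes (63.9 against 294 CPM), Runx1t1, Tle2 and Kmt2a. In later neutrophil-like cells 12 of 22 were lower, among them the acetyltransferase genes Crebbp, Ep300 and Kat6a, with a median ratio of 0.45 beside 0.60 over all genes. Of all genes, 9.23%, 34.1% and 41.8% were at least 2-fold lower in these 3 comparisons.

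The factors that occupy blood enhancers together with Runx1 differed more by class. Of 12 on the list, Gata2 was a gate marker and was left out. In basophil or mast cell-like over HSC-like cells 4 of 11 were at least 2-fold higher and 4 lower, beside 7.58% and 19.9% of all genes. Cebpa, a myeloid factor, was at 243 against 4.68 CPM, Ets1 at 243 against 21.7 (11.2-fold, 9.33 to 13.6), Gata1, the erythroid and megakaryocyte factor, at 32.6 against 9.88 (3.30-fold, 2.43 to 4.54) and Spi1, which encodes PU.1, at 161 against 64.7 (2.49-fold, 2.20 to 2.82). The lower ones, Tal1, Lyl1, Lmo2 and Erg, are factors of the stem cell enhancer complex. Lmo2 was at 153 against 937 CPM.

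In plasmacytoid dendritic-like cells Spi1 (290 CPM, 4.49-fold, 3.87 to 5.21) and Cebpa (32.3 CPM, 6.91-fold, 4.12 to 11.7) were higher, and 6 of 11 factors were lower, Tal1, Lmo2, Erg, Fli1, Gata1 and Ets1, beside 9.49% and 22.3% of all genes. Gata1 had 3 UMIs there, a ratio of 0.252 (0.0504 to 0.774). In megakaryocyte-like cells Gata1 was higher at 45.6 CPM (4.61-fold, 3.51 to 6.17) and Erg lower at 45.4 against 101 CPM, and the other 9 were within 2-fold, where 4% and 9.23% of all genes were higher and lower. In later erythroid-like cells Gata1 was higher at 123 CPM (12.5-fold, 9.60 to 16.5) and 7 of 11 were lower, with Erg at 1.73 CPM, Fli1 at 5.59, Ets1 at 0.478 and Spi1 at 7.84, beside Lyl1, Lmo2 and Elf1, where 13.2% of all genes were at least 2-fold higher and 34.1% lower. In later neutrophil-like cells Spi1 and Cebpa were higher (231 and 40.4 CPM) and 6 of 11 lower, where 7.01% of all genes were at least 2-fold higher and 41.8% lower.

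Of 20 textbook Runx targets, 9 were gate markers and 2 to 6 of the rest had enough UMIs to compare a class with HSC-like cells, so this list is thin. Csf2rb, a receptor subunit for interleukin 3 and related cytokines, was at 172 CPM in basophil or mast cell-like, 48.9 in plasmacytoid dendritic-like, 4.16 in HSC-like and 1.26 in later erythroid-like cells. Itgal, the integrin subunit of LFA-1, was at 62.3, 48.9, 4.85 and 1.56 CPM in the same classes. Nfe2, a factor of platelet formation, was at 169 CPM in HSC-like, 19.1 in plasmacytoid dendritic-like and 41.9 in later erythroid-like cells. Against HSC-like cells, 3 of 5 targets were at least 2-fold higher and 0 lower in basophil or mast cell-like cells. In plasmacytoid dendritic-like cells 3 of 4 were higher and 1 lower, and in later erythroid-like cells 0 of 5 higher and 4 lower. Of all genes, 7.58%, 9.49% and 13.2% were at least 2-fold higher and 19.9%, 22.3% and 34.1% lower in these comparisons. In megakaryocyte-like cells none of 5 targets passed 2-fold.

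Genes whose level over the 17 classes was most like that of each member were ranked by Pearson correlation of log2(CPM + 10), among genes with at least 500 UMIs. The classes come from 1 library and differ in depth, and the correlations are descriptions. For Runx1 the closest were Abca2, Klhl6, Map3k5, Zc3h7a and P2rx4 (r from 0.90 to 0.88), all highest in basophil or mast cell-like cells. For Runx2 they were Arhgap27, Hes6, Rnf227, Wasf2 and Slc27a1 (0.93 to 0.92), all highest in plasmacytoid dendritic-like cells. For Runx3 they were Gm29170, Zfp24, Cux1, Brd3 and Rbmx (0.92 to 0.87), whose highest class was not the same for all. For Cbfb they were Laptm5, Celf2, Sept9, Dock2 and Lrrfip1 (0.98 to 0.95), all lowest in later erythroid-like cells. Among the members themselves, Cbfb followed Runx2 (r = 0.80) and Runx1 (0.68) more than Runx3 (0.45), and Runx2 with Runx3 had the lowest value (0.38).

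Classes of under 50 cells gave wide intervals. In 32 eosinophil-like cells Runx1 was at 159 CPM (128 to 196), Runx2 at 41.7 (26.4 to 62.5), Runx3 at 48.9 (32.2 to 71.1) and Cbfb at 57.9 (39.6 to 81.8). In 24 B lineage-like cells the levels were 150 (110 to 200), 88.0 (58.0 to 128), 78.2 (50.1 to 116) and 48.9 CPM (27.4 to 80.7) in the same order, and plasma cell genes such as Jchain and Xbp1 were at 9121 CPM in sum there against 128 over all cells, their part in these levels not tested. Cells in no gate, 1243 of those kept, had 231 CPM of Runx in sum and 4.02 (3.80 to 4.26) Runx UMIs per Cbfb UMI.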

How the data were processed

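The deposited UMI counts were made by the authors from a droplet 3′ single-cell library by Cell Ranger 6.0.2 against mm10, per the labels and methods. Nothing had been scaled, and barcodes that fail the study's own cut-offs were still present. The labels also describe a bulk RNA kit, which the matrix contradicts. Those cut-offs were applied here: UMIs between 1000 and 50000, detected genes between 1000 and 6500, and less than 7% mitochondrial UMIs. Cells were thinned to 5000 UMIs (seed 1), which left out 99 shallower cells, and gated on markers. Gate thresholds were set after the data had been seen, and the members and lists were chosen with earlier results of these data known. Scrublet (expected rate 6%) in scanpy 1.11.5 called 268 cells (3.51%) doublets, and they were kept. UMIs were summed per class, with exact Poisson (levels), Clopper-Pearson (shares) and conditional binomial (ratios) 95% intervals in scipy 1.17.1. They were tested on simulated Poisson and binomial counts, which the intervals assume, so that test does not cover UMIs clumped in few cells. PCR and capture error are outside these intervals, and 1 library allows no test between groups. A gene entered a ratio when the pair of classes held 50 UMIs of it or more in sum. Named genes were the members, the 5 genes most similar to each, and list genes past 2-fold in the comparisons described. Kit, Brd9 and lineage genes were read as checks on the sort. Some genes of the gates and lists are not reported here by name.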

Additional observations from a re-analysis of the deposited data

How the results depend on the processing

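With 1 library, leaving out a replicate is not possible, and no paired fit exists. No paired analysis was possible because there is 1 sample. Of the ratios to HSC-like cells, 7 changed direction under an alternative, given below. Those of basophil or mast cell-like Runx1, plasmacytoid dendritic-like Runx2, megakaryocyte-like Runx2 and Runx3, and later erythroid-like Runx1, Runx2 and Cbfb did not. Removing doublet calls moved 0 of 212 values by more than their interval. Of 22 ratios to HSC-like cells past 2-fold, 3 of them for the 3 erythroid gates pooled, 20 stayed past it with 1 further marker per gate, 14 with gates on unthinned counts, 19 with the stricter cell filter and 8 of the 9 that graph clusters could give. As a mean over cells, 20 stayed past it. Not all ratios that were lost are named beside their values, so a 2-fold call given without a caveat may be among them. Clusters gave no value for the split erythroid, neutrophil and monocyte classes, granulocyte-monocyte progenitor-like or Flt3 Csf1r double-positive cells. The mean over cells and the T or innate lymphoid-like class without 1 cell were chosen after seeing the data. The cause of the shifts below was not tested.

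With 1 further marker per gate, the Runx1 and Runx3 shares in HSC-like cells were 59.6% and 19.2%, Cbfb in conventional dendritic-like cells 123 CPM, Runx3 in megakaryocyte-like cells 157 CPM, 3.18-fold of HSC-like cells and 40.6% of Runx UMIs, and the later erythroid-like over HSC-like ratios of Runx2 and Cbfb 0.0337 and 0.140. With gates on unthinned counts, plasmacytoid dendritic-like Runx2 was 394 CPM, 6.48-fold and 58.7%, megakaryocyte-like Runx3 132 CPM and 36.5%, and megakaryocyte-like Runx2 0.586-fold. Cbfb was 0.145-fold in later erythroid-like cells, and over the 3 erythroid gates Runx2 was 0.0596-fold and Cbfb 0.207-fold. In all, 6 ratios to HSC-like cells changed side of 1 there: granulocyte-monocyte progenitor-like Runx1 (1.25) and Runx2 (1.001), early erythroid-like Runx1 (1.12) and Cbfb (1.16), and intermediate erythroid-like Runx1 (1.07) and Cbfb (1.11).

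With graph clusters, the Runx1 and Runx3 shares in HSC-like cells were 61.8% and 15.5%, plasmacytoid dendritic-like Runx2 was 244 CPM, 4.14-fold and 48.9%, conventional dendritic-like cells had 2.52 Runx UMIs per Cbfb UMI, and Runx3 was 3.51-fold in megakaryocyte-like cells. Over all erythroid-like cells Runx2 was 0.0558-fold, Cbfb 0.130-fold, the Runx3 share 36.8% and Runx per Cbfb 10.2. Conventional dendritic-like Runx3 changed side to 1.36-fold. As a mean over cells, basophil or mast cell-like Runx1 was 455 CPM, later erythroid-like Cbfb 0.142-fold, and over the 3 erythroid gates Runx2 0.0763-fold and Cbfb 0.258-fold. Without mitochondrial, ribosomal protein and haemoglobin UMIs in the total, levels were 689 CPM (plasmacytoid dendritic-like Runx2), 152 (conventional dendritic-like Cbfb), 618 (basophil or mast cell-like Runx1) and 218 (megakaryocyte-like Runx3). The stricter filter gave HSC-like shares of 18.5% Runx2 and 26.3% Runx3, and 1.94-fold for megakaryocyte-like Runx3. Unthinned, 47.2% of HSC-like and 93.8% of plasmacytoid dendritic-like cells had at least 2 Runx genes and 96.2% of the latter a Runx2 UMI; thinned to 3000 UMIs, 14.8%, 46.2% and 68.8%. These detection shares changed with the depth to which cells were thinned, and the same was not tried for summed levels.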
